A study of Homo sapiens with 6 samples.

Results

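The genes ATF3, ATF4, ATF5, DDIT3 (which encodes CHOP), CEBPB, CEBPG and TRIB3 form the core of the transcription factor network switched on by the integrated stress response. They were chosen by symbol in the deposited expression table, which listed all 7 among its 29571 genes, and all 7 were expressed well enough to be compared. The study sequenced RNA of DB, a human B-lymphoma cell line of the diffuse large B-cell type, in a group labelled DB_ZHX2 (ZHX2 cells below) and a group labelled DB_ZHX2_Mut4 (Mut4 cells below). The ZHX2 protein carries zinc fingers as well as homeodomains and binds DNA to control transcription. The labels do not say what Mut4 alters, how either form was introduced, or whether the cells keep their own ZHX2, and there is no group without a construct, so a level called lower in Mut4 cells could as well be called higher in ZHX2 cells. The comparison was made, per the series' design text, to look for enriched pathways.

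Each group has 3 labelled replicates, but the columns of a group were multiples of a single expression profile. The Mut4 columns 2 and 3 equalled column 1 times 1.05 and 1.21 at all 23808 genes above 0. For the ZHX2 columns the multipliers were 1.33 and 0.897, at 23368 of 23370 genes, the network genes included. Each group therefore counted as 1 sample (n = 1), the mean of its columns was taken as its level, and differences are given without a standard deviation or a p-value, since nothing measures their replicate error. Levels are in FPKM, fragments scaled to transcript length and library size, which allows levels of different genes to be set side by side. The depth behind them is unknown, because the table holds no counts. Ratios and folds are of FPKM + 1, Mut4 cells over ZHX2 cells, over the 12643 genes that reached 1 FPKM in 3 or more of the 6 columns.

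The network works as a relay. When the initiation factor eIF2α is phosphorylated under endoplasmic reticulum stress, amino acid shortage or haem shortage, most translation slows, but ribosomes reach the coding sequence of ATF4 mRNA, and that of ATF5, through short upstream reading frames. ATF4 protein is a basic leucine zipper (bZIP) factor that pairs with C/EBP proteins on composite DNA elements and activates DDIT3, ATF3, TRIB3 and genes of amino acid supply. CHOP and TRIB3 then act downstream, the first in stress-induced death and recovery of protein synthesis, the second as a pseudokinase that binds ATF4 and CHOP and dampens them. FPKM measures the mRNA, so the protein of ATF4 or ATF5 was not measured here. For CEBPB the long and short proteins made from its mRNA cannot be told apart either.

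Of the 7 genes, ATF3, DDIT3, TRIB3, CEBPB and CEBPG, 5 in number, were lower in Mut4 cells by 1.5-fold or more, and 0 were higher by that much. Over all genes compared, 2.56% were at least 1.5-fold lower and 2.54% at least 1.5-fold higher. The median log2 ratio of the 7 was −0.92, beside 0.02 for all genes, and 6 of the 7 ratios were below 0, as were 46.2% of all ratios. ATF3, DDIT3 and TRIB3 were at least 2-fold lower, as were 0.712% of all genes. ATF4 itself and ATF5 stood apart from the other members, with log2 ratios of −0.23 and 0.17, inside the range of −0.59 to 0.59 that held the central 95% of genes.

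Upstream sequence is shown for the 3 members in which a C/EBP-ATF or endoplasmic reticulum stress element was found outside exons, ATF3, DDIT3 and CEBPG. For comparison it is shown for ATF5, whose ratio lay on the other side of 0. Neither element was matched in CEBPB and TRIB3, also at least 1.5-fold lower in Mut4 cells, or in ATF4, and their sequence is not shown. The sequences are from RefSeq on GRCh38.p14, with the gene's strand read 5′ to 3′. Exons of the gene itself in GENCODE v29 were left out. Windows of 250 bases before each annotated start were searched on both strands for 6 motifs, and capitals mark every match. These are the C/EBP-ATF response element TGATGNAA, the cyclic AMP response element with a free middle base TGACNTCA, its short core TGACG, the AP-1 element TGANTCA, the CCAAT box, and the endoplasmic reticulum stress element with its last base left free CCAATNNNNNNNNNCCAC, which contains a CCAAT box.
ATF3, chr1:212565157-212565333, plus strand: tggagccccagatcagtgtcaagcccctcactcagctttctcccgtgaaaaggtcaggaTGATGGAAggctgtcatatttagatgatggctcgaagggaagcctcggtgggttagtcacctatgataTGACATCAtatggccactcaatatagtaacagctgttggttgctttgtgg
DDIT3, chr12:57520518-57520767, minus strand: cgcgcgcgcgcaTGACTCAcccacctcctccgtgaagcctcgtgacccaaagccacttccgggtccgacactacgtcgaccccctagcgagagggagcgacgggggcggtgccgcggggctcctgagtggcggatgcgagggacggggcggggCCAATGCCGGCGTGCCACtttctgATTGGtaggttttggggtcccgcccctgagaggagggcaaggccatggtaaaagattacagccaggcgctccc
CEBPG, chr19:33373896-33374112, plus strand: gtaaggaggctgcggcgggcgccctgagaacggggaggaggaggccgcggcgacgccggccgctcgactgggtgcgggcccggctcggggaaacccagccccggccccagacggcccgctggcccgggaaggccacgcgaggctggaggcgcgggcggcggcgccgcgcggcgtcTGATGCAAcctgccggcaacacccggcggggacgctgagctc
ATF5, chr19:49929995-49930218, plus strand: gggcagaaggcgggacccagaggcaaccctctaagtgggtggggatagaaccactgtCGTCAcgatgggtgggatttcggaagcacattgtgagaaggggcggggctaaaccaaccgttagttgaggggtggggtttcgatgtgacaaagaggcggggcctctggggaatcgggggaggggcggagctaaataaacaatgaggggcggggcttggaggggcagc

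Windows were found for all 7 members, 16 in total, and several members have more than 1 annotated start. The ATF3 stretch holds TGATGGAA from base −191 and TGACATCA from base −123, counted back from the start at 212565407. CEBPG holds TGATGCAA from base −42 of its start at 33374113. The C/EBP-ATF element thus appears in 2 of 7 members, and in 3.89% of 27305 genes, where a match in any window of a gene counts. By window the share was 3.14% of 35116. The members have 16 windows for 7 genes, more per gene than over all genes, which gives them more chances of a match. DDIT3 alone among the members has the stress element with its last base left free, CCAATGCCGGCGTGCCAC from base −97, a form found in 0.344% of genes. The base left free is t in DDIT3, and the free middle base of the ATF3 match TGACATCA is A. The shares are of these looser forms, and matches to stricter forms were not counted. The TGACNTCA form, seen in ATF3, occurs in 8.29% of genes, the short core in 24.9%, the AP-1 element in 8.06% and the CCAAT box in 37% of genes. A short core was matched in ATF4, ATF5 and CEBPB, an AP-1 element in ATF5 and DDIT3, and a CCAAT box in ATF3, CEBPB, CEBPG and DDIT3, partly inside exons. None of the 6 motifs was matched in the windows of TRIB3. Its searched starts, from 381295 to 381343, lie well inside the annotated gene, which begins at 362835. The DDIT3 start at 57520517 also lies inside its gene, which reaches 57521737 on the minus strand. All 250 bases of the ATF4 windows, and of the CEBPG window at 33373709, were exon of the gene itself. For ATF4 no sequence outside its exons was therefore searched. Sequence outside the windows was not searched for any member, so a missing match does not mean that a gene lacks an element. These matches describe letters only. The expression values are per gene and do not say which start was used. For ATF3 2 annotated starts were searched, and others were not, so the stretch shown need not be the one in use.

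ATF4, the activator at the head of the relay, was the most abundant member in both groups. The gene lies on chromosome 22 from 39519695 to 39522685 (GRCh38, plus strand). It was listed at 296, 312 and 358 FPKM in Mut4 replicates 1 to 3 and at 351, 468 and 315 FPKM in ZHX2 replicates 1 to 3. The columns of the groups overlapped, with ZHX2 replicate 3 below Mut4 replicate 3. The means of 322 FPKM (Mut4) and 378 FPKM (ZHX2) make ATF4 1.17-fold lower in Mut4 cells, and 15.5% of all genes had a lower ratio. Copies of the gene elsewhere in the genome, ATF4P1, ATF4P2 and ATF4P3, were listed at no more than 1.46 FPKM in either group, and reads shared with such copies cannot be assigned with certainty.

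ATF5, a bZIP factor with the same kind of translational control and a known role in mitochondrial stress, was the single member with a ratio above 0. It lies on chromosome 19 from 49928702 to 49933935. Its levels were 150.3, 158 and 182 FPKM in Mut4 replicates 1 to 3 and 135, 180.1 and 121 FPKM in ZHX2 replicates 1 to 3, so the columns overlapped. The means of 163 and 146 FPKM make ATF5 1.12-fold higher in Mut4 cells. Exons of NUP62, a nuclear pore gene on the opposite strand, share 626 bases with ATF5 exons, and NUP62 had a log2 ratio of 0.29, from 41.1 (Mut4) and 33.5 (ZHX2) FPKM. The share of NUP62 reads in the ATF5 value was not tested.

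**Figure D1:**
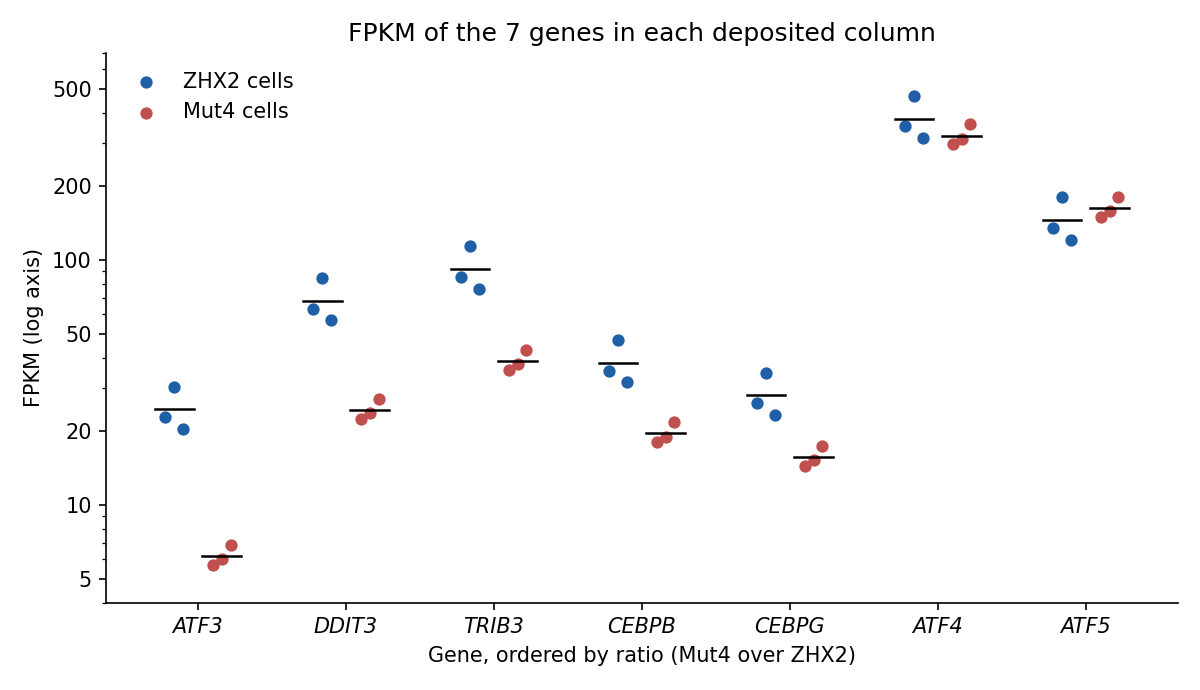
FPKM (log axis) of the 7 genes in each deposited column, replicates 1 to 3 from left to right within a group, ZHX2 cells in blue and Mut4 cells in red, with a bar at the mean. The points of a group are multiples of 1 profile and show no replicate spread; ATF3 lies at 6.19 against 24.6 FPKM, whereas the columns of ATF4 and ATF5 overlap.

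ATF3, a bZIP factor induced by many stresses that mostly represses its targets, had the lowest ratio of the members. It lies on chromosome 1 from 212565334 to 212620777. Its levels were 5.70, 5.997 and 6.88 FPKM in Mut4 replicates 1 to 3 and 22.8, 30.4 and 20.5 FPKM in ZHX2 replicates 1 to 3. Every ZHX2 column was above every Mut4 column, as for 8.86% of all genes. Since the columns of a group are multiples of 1 profile, a lack of overlap, here and for the members below, restates that the fold passes a fixed size and is no separate evidence. The means of 6.19 and 24.6 FPKM give a log2 ratio of −1.83, or 3.56-fold lower in Mut4 cells. Only 12 of the 12643 genes had a lower ratio. Over the 9 pairings of a ZHX2 column with a Mut4 column, the plain FPKM fold ranged from 2.98 to 5.34.

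DDIT3, whose product CHOP is a C/EBP-related factor that heterodimerizes with other C/EBP proteins, was next. It lies on the minus strand of chromosome 12 from 57516588 to 57521737. It was listed at 22.5, 23.7 and 27.2 FPKM in Mut4 replicates 1 to 3 and at 63.3, 84.4 and 56.8 FPKM in ZHX2 replicates 1 to 3, without overlap. The means were 24.4 and 68.2 FPKM, 2.72-fold lower in Mut4 cells (log2 ratio −1.44), and the column pairings gave plain folds of 2.09 to 3.75. MARS1, the methionyl-tRNA synthetase gene on the opposite strand, shares 355 exon bases with DDIT3. MARS1 was at 53.2 FPKM in both groups (log2 ratio −0.0008), so the DDIT3 difference was not shared by MARS1. AC022506.1, a protein-coding record on the same strand as DDIT3, shares 105 exon bases and had no expression value. MBD6, also on the opposite strand, shares 58 exon bases and was at 4.46 (Mut4) and 4.91 (ZHX2) FPKM. The microRNA record MIR616, inside an intron of DDIT3 and on its strand, was listed at 0.631 (Mut4) and 2.68 (ZHX2) FPKM, a log2 ratio of −1.17.

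TRIB3, the pseudokinase that feeds back on ATF4 and CHOP and can bind AKT, followed. It lies on chromosome 20 from 362835 to 397559. TRIB3 stood at 35.7, 37.5 and 43.1 FPKM in Mut4 replicates 1 to 3 and at 85.3, 113.7 and 76.5 FPKM in ZHX2 replicates 1 to 3. The groups did not overlap, and the means of 38.8 and 91.8 FPKM make it 2.34-fold lower in Mut4 cells (log2 ratio −1.22). The column pairings gave plain folds of 1.78 to 3.19. Its relatives TRIB1 and TRIB2, which also act as scaffolds for protein degradation, did not share this difference in size or sign: TRIB1 was at 4.90 and TRIB2 at 10.1 FPKM in Mut4 cells, against 4.04 and 8.85 FPKM in ZHX2 cells (log2 ratios 0.23 and 0.17).

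The C/EBP partners CEBPB and CEBPG differed less. CEBPB, a factor of inflammatory and stress responses that pairs with ATF4 and CHOP, lies on chromosome 20 from 50190734 to 50192689. Its levels were 18.1, 19.0 and 21.8 FPKM in Mut4 replicates 1 to 3 and 35.4, 47.2 and 31.7 FPKM in ZHX2 replicates 1 to 3, with no overlap. CEBPB was 1.90-fold lower in Mut4 cells on the means of 19.6 and 38.1 FPKM (log2 ratio −0.92), with plain folds of 1.46 to 2.61 over the column pairings. Its antisense record CEBPB-AS1 was listed at 0.242 and 0.367 FPKM. The other C/EBP genes that passed the filter, CEBPA and CEBPD, had log2 ratios of −0.05 and 0.02, at 1.74 to 2.71 FPKM.

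CEBPG, a short C/EBP protein that lacks an activation domain and dimerizes with ATF4, lies on chromosome 19 from 33373330 to 33382686. It was at 14.5, 15.3 and 17.5 FPKM in Mut4 replicates 1 to 3 and at 26.0, 34.7 and 23.4 FPKM in ZHX2 replicates 1 to 3. The columns did not overlap, although Mut4 replicate 3 and ZHX2 replicate 3 were only 1.34-fold apart. The means of 15.7 and 28.0 FPKM make it 1.73-fold lower in Mut4 cells (log2 ratio −0.79).

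**Figure D2:**
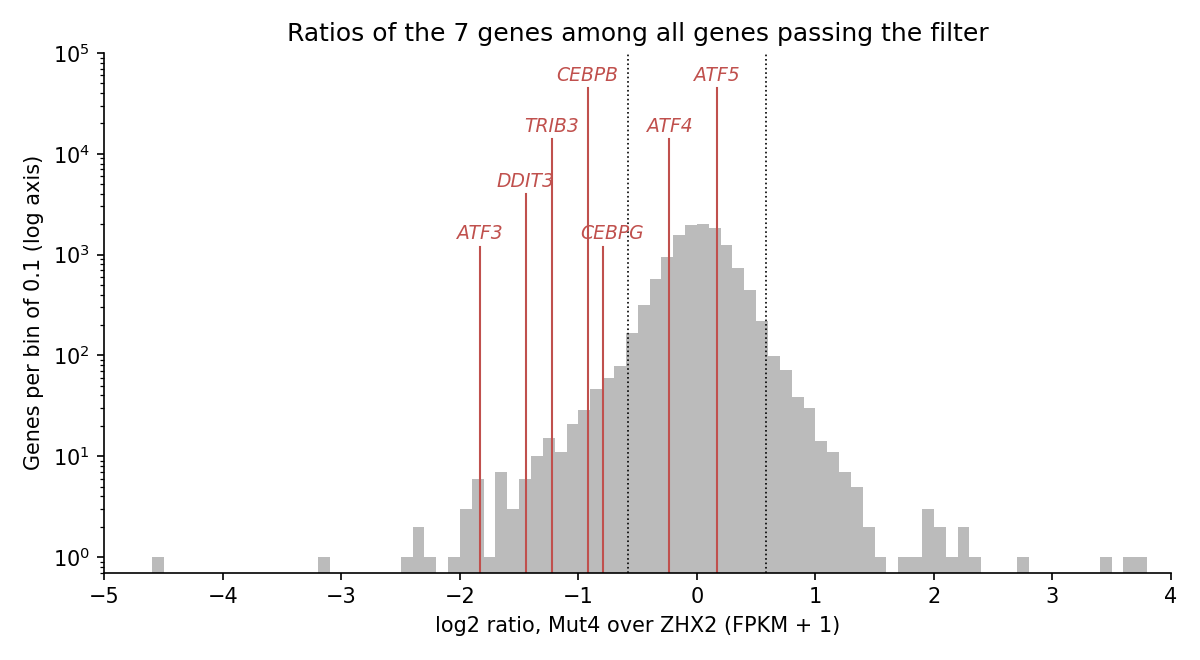
Histogram of log2 ratios (Mut4 over ZHX2, FPKM + 1) of the 12643 genes, with the number of genes per bin on a log axis, red lines at the 7 network genes and dotted lines at 1.5-fold. ATF3 at −1.83 lies far in the lower tail, CEBPB and CEBPG at its shoulder, and ATF4 and ATF5 within the bulk.

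The order of levels was the same in both profiles: ATF4, ATF5, TRIB3, DDIT3, CEBPB, CEBPG, ATF3. With 1 profile per group there is no spread by which to say that neighbours in this order differ. The distances within the order are free of the column constants, since a constant cancels within a profile. Per 100 FPKM of ATF4, ATF3 was at 6.49 FPKM in ZHX2 cells and 1.92 FPKM in Mut4 cells. DDIT3 was at 18.0 and 7.59, TRIB3 at 24.3 and 12.0, CEBPB at 10.1 and 6.09, and CEBPG at 7.41 and 4.89 FPKM per 100 of ATF4, ZHX2 cells first. All 5 were thus lower relative to ATF4 as well, by 1.52-fold for CEBPG to 3.38-fold for ATF3. ATF5 was at 38.5 in ZHX2 cells and 50.7 in Mut4 cells on the same scale.

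Some pairs kept nearly the same proportion while others did not. CEBPB was 1.36 times CEBPG in ZHX2 cells and 1.25 times in Mut4 cells. DDIT3 was 0.743 times TRIB3 in ZHX2 cells and 0.631 times in Mut4 cells. CEBPG and ATF3 were nearly level in ZHX2 cells, at a ratio of 1.14, while in Mut4 cells CEBPG was 2.54 times ATF3. ATF5 was 1.58 times TRIB3 in ZHX2 cells and 4.22 times in Mut4 cells. ATF4 made up 48.8% of the summed FPKM of the 7 genes in ZHX2 cells and 54.6% in Mut4 cells, and the sums were 774 and 590.1 FPKM.

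**Figure D3:**
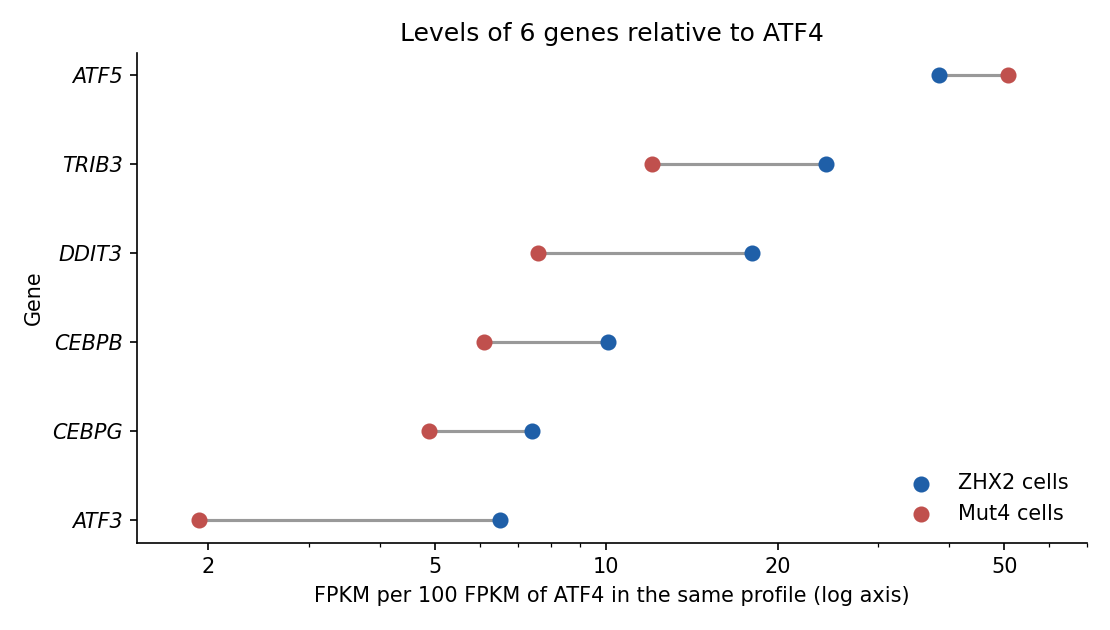
FPKM of 6 network genes per 100 FPKM of ATF4 in the same profile (log axis), blue for ZHX2 cells and red for Mut4 cells, 1 profile each. ATF3, DDIT3, TRIB3, CEBPB and CEBPG lie to the left in Mut4 cells, and ATF5 lies to the right.

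Genes nearest to the members in ratio were sought among genes with a symbol and of similar level, within 2-fold of the member's mean, for the 3 members at least 2-fold apart. The measure is the difference in log2 ratio over 2 profiles, so likeness here means no more than a similar ratio and level. For DDIT3 the nearest of 1260 such genes were CHAC1 (log2 ratio −1.44), which encodes a glutathione-degrading enzyme, and SLC3A2 (−1.40), the amino acid transporter heavy chain named in the series title. Among genes with a symbol, those for ATF3 were BHLHA15 (−1.84), a factor of secretory cells, and MATR3 (−1.65), and for TRIB3 the mitochondrial tRNA record MT-TM (−1.26) and the chaperone gene HYOU1 (−1.11). The MATR3 value is uncertain, since the table lists another record of that symbol, at 75.8 (Mut4) and 53.2 (ZHX2) FPKM, whose log2 ratio was 0.50.

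Possible bZIP partners outside the network were mostly less than 1.5-fold apart. In the list of ATF and CREB families, which did not hold XBP1 (named below), 0 of 12 measured genes were 1.5-fold apart in either direction. The median was 0.02, a sign that turned when any of 3 columns was left out or the ratios were centred. JUN, FOS and BATF factors had 0 of 7 at 1.5-fold, with a median of −0.14 that was 0.0050 without ZHX2 replicate 2. In the list of other C/EBP and PAR factors, 2 of 6 were lower, XBP1 1.62-fold and NFIL3 1.58-fold. XBP1, the spliced factor of the unfolded protein response, was counted in this list but is neither a C/EBP nor a PAR factor. All 8 measured MAF, NFE2 and BACH factors had ratios below 0, as did 46.2% of all genes. Their median was −0.22, or −0.09 without ZHX2 replicate 2. Of these 8, 2 were at least 1.5-fold lower, NFE2L1, a regulator of proteasome genes, 1.61-fold and MAFG, a small MAF partner, 1.57-fold. None of these 4 genes remained past 1.5-fold without ZHX2 replicate 2. Leaving out a column only rescales the profile of its group, which shifts the ratios of all genes together. Without ZHX2 replicate 2 the median of all genes was 0.17. The same holds wherever a column is left out below, so such changes are not particular to a gene or list.

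Of 14 measured targets linked to CHOP and stress feedback, 6 lay 1.5-fold or more below the ZHX2 level and 0 above it, and the list's median was −0.43. Without ZHX2 replicate 2 the median was −0.255, with 5 lower. PPP1R15A, the phosphatase subunit that reverses eIF2α phosphorylation, was at 16.6 against 85.8 FPKM, a larger difference than that of any member. DDIT4, an inhibitor of mTORC1, was at 32.8 against 67.1 FPKM, and SESN2, a sensor that also restrains mTORC1, at 16.0 against 32.8 FPKM. The death receptor gene TNFRSF10B, a known CHOP target, was 1.63-fold lower. Other death genes of the list were under 1.5-fold: BBC3 had a log2 ratio of −0.47, PMAIP1 of −0.35 and BCL2L11 of 0.06. ERO1A, an oxidase often named as a CHOP target, was at 6.17 and 6.46 FPKM.

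Amino acid supply genes under ATF4 were lower in 6 of 17 cases and higher in 0, with a median of −0.49, including SLC3A2 and the glycine transporter SLC6A9. Without ZHX2 replicate 2 they numbered 4, and the median was −0.32. Without ZHX2 replicate 3 they numbered 9, and the median was −0.61. CTH, of cysteine synthesis, was at 24.5 against 44.2 FPKM and PYCR1, of proline synthesis, at 53.3 against 92.5 FPKM. Among secreted and other targets, 6 of 11 were lower and 0 higher, with the lowest median of the lists, −0.68. ADM2, a peptide hormone, was at 3.77 against 11.5 FPKM, INHBE, an inhibin subunit, at 14.2 against 27.2 FPKM and VEGFA, the angiogenic factor, at 4.52 against 9.32 FPKM. TXNIP, an inhibitor of thioredoxin also counted in this list, was at 12.8 against 42.2 FPKM. Control of the listed genes by ATF4 in these cells was not tested. Of the tRNA synthetase and export genes, 2 of 13 were at least 1.5-fold lower, WARS1 and TARS1 with log2 ratios of −0.66 and −0.59, and the median of −0.14 was 0.04 without ZHX2 replicate 2. In that case 0 of the 13 passed 1.5-fold, whereas 1 did without Mut4 replicate 1 or 2 and 3 without ZHX2 replicate 3. The 13 lists together held 131 measured genes besides the members, of which 30 (22.9%) were at least 1.5-fold lower and 0 higher, beside the 2.56% and 2.54% of all genes. Without ZHX2 replicate 2 the 30 became 18. The lists were drawn up with earlier results of these data known, so these counts are descriptions.

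**Figure D4:**
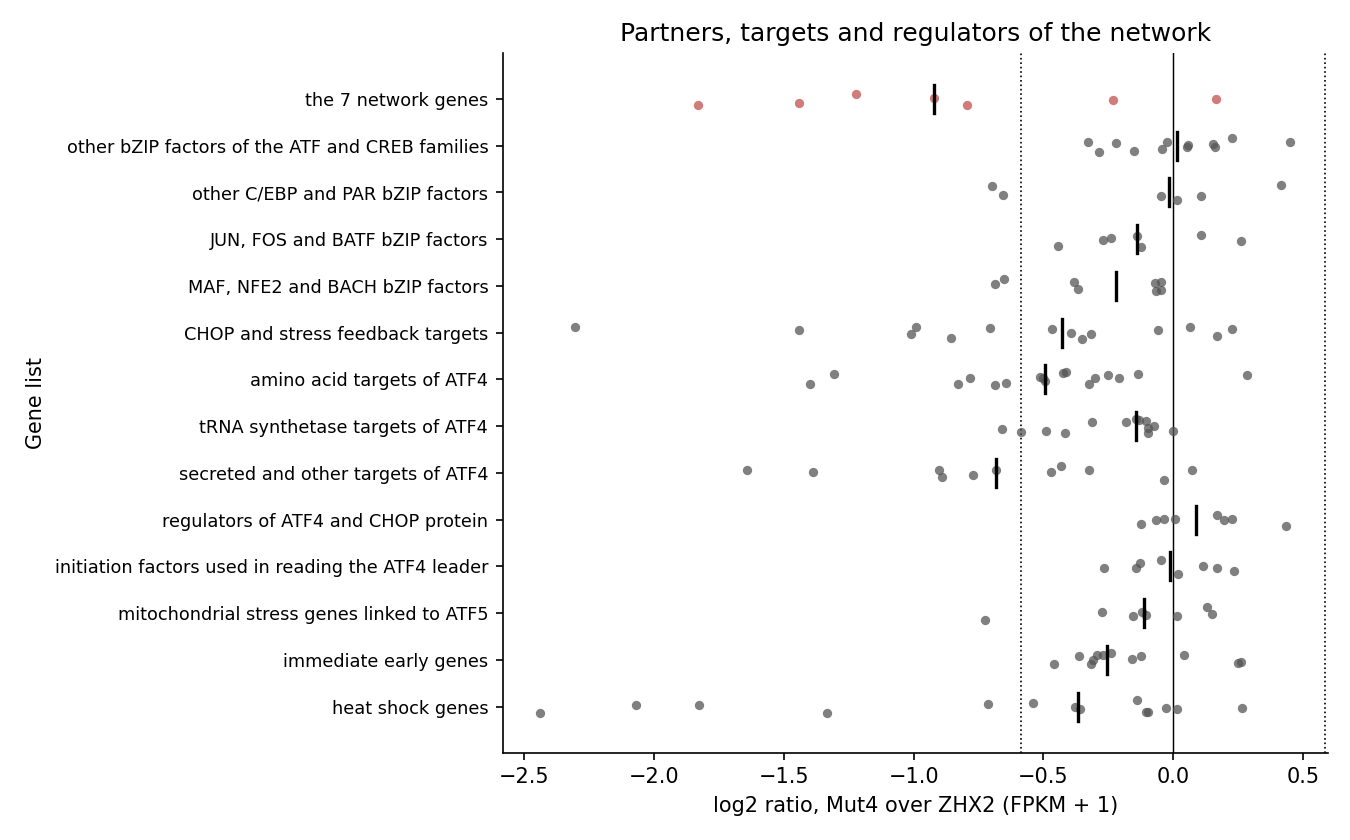
Log2 ratios (Mut4 over ZHX2, FPKM + 1) of the network genes in red and of 13 gene lists in grey, 1 point per gene, with a black bar at each median and dotted lines at 1.5-fold. The lowest points are HSPA6 at −2.44 and PPP1R15A at −2.30, and the 8 regulators and 8 initiation factors all lie inside the dotted lines.

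Genes that act on the network from above were also compared. Of 8 measured regulators of ATF4 or CHOP protein, among them the ubiquitin ligase subunits BTRC and FBXW11 and the acetyltransferase EP300, 0 were 1.5-fold apart, and the median of 0.09 was −0.02 without ZHX2 replicate 3. AKT1, a partner of TRIB3, had the largest ratio, 0.44. Of 8 initiation factors used in reading the leader of ATF4 mRNA, 0 were 1.5-fold apart. The reinitiation factors DENR and MCTS1 had log2 ratios of −0.13 and −0.14, EIF2D 0.24 and EIF2S1, which encodes eIF2α, 0.17. The phosphorylated share of eIF2α was not measured. Of 8 mitochondrial stress genes linked to ATF5, 1 was lower, the chaperone HSPA9 (34.6 against 57.8 FPKM), and the median was −0.11, or 0.07 without ZHX2 replicate 2, when 0 of the 8 passed 1.5-fold.

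Values of immediate early and heat shock genes stand beside those of the network, and their part in it was not tested. ATF3 is also an immediate early gene. In the list of the other immediate early genes, with 12 measured, 0 were 1.5-fold apart and 9 were below 0, with a median of −0.25 (−0.10 without ZHX2 replicate 2). Among the 14 measured genes of the heat shock list the median was −0.37, and 5 lay 1.5-fold or more lower, led by HSPA6, HSPA1A, HSPA1B and DNAJB1. Without ZHX2 replicate 2 the median was −0.19, and 4 genes lay that far below. The level of HSPA6 was 7.84 (ZHX2) against 0.632 (Mut4) FPKM, so it passed the filter of 1 FPKM through its ZHX2 columns only. Its low ratio is therefore partly a product of the filter. With no filter, the count past 1.5-fold was still 5 of 14. The reads of HSPA1A and HSPA1B, near-identical in sequence, may have been divided wrongly between them.

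Markers of B cells were present in both profiles. All 8 B-cell markers passed the filter, 0 were 1.5-fold apart, and their summed level was 684 (Mut4) and 631 (ZHX2) FPKM. Because CEBPB and CEBPA are also myeloid factors, 13 myeloid markers were examined. Of these, 3 passed the filter (LYZ, AIF1 and ELANE), S100A8 and FCGR3A were at 0 in both groups, CD14 was below 0.8 FPKM, and the summed level was 12.5 and 15.6 FPKM. Of 7 plasma cell markers, XBP1 alone was 1.5-fold lower, and the list's median was −0.06, with PRDM1 at 1.22 and 1.38 FPKM. Other lists had 4 of 10 T cell, 1 of 6 NK cell, 5 of 6 epithelial, 0 of 5 erythroid and 0 of 6 fibroblast markers past the filter, with none 1.5-fold apart.

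In the authors' deposited table, ATF3, DDIT3 and TRIB3 were marked as significant, as were 0.747% of all 29568 rows on the side lower in Mut4 cells. These rows include genes that did not pass the filter, so shares over them are not comparable with those over the 12643 genes. The q-values in the authors' deposited table were 6.27e-18 for ATF3, 2.97e-10 for DDIT3 and 1.75e-07 for TRIB3. For CEBPB and CEBPG the authors' deposited table gave 0.000182 and 0.00151, also below 0.05, as for 1.78% of rows on that side. For ATF4 and ATF5 the values in the authors' deposited table were 0.579 and 0.8. No source used here says how these were computed, and with 1 profile per group they are not used as a measure of replicate error.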

How the data were processed

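Poly(A) RNA was sequenced from libraries with a dUTP-marked second strand, per the labels' protocols. Per the submitters' processing notes, the tools were fastp, HISAT2, StringTie and edgeR, without versions, and the build was GRCh38. The deposited table gives FPKM for 6 columns, per the file headers. Per the file headers, each gene also has the authors' fold ratio, the log2 of that ratio, and a p-value with its q-value. The deposited log2 ratio is ZHX2 replicate 1 over Mut4 replicate 1, opposite in sign to the ratios printed here. No source used here says whether counting used strand.

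The columns of a group were checked against one another and, being multiples of 1 profile within a relative tolerance of 1e-06 (ATG5 and ACSL1 apart), were averaged and counted as 1 sample. Levels were compared as log2(FPKM + 1), which understates ratios of low genes. The 3 rows with mismatched values (ATG5, ACSL1 and SLC7A11) were left out, and 15 altered gene symbols were restored by gene ID. The limma fit planned for independent columns was not run. Genes were named by rule: all members, up to 4 per list at 1.5-fold or more by size, and the 2 nearest in ratio, records without a symbol left out, to each member at least 2-fold apart; TRIB1, TRIB2, ERO1A, overlapping genes, markers and other genes under 1.5-fold, and TNFRSF10B, were named after their values were seen. Members and lists were chosen with earlier results of these data known. Positions and exons are from GENCODE v29. The comparison steps were run on simulated profiles with large planted changes in well expressed genes, as a check of the code only. That check does not cover smaller differences or genes at low levels. Python 3.11.15, numpy 2.4.6, pandas 2.3.3 and matplotlib 3.10.9 were used.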

Additional observations from a re-analysis of the deposited data

How the results depend on the processing

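No paired analysis was possible because replicate numbers mark multiples of 1 profile and no test was run. The direction of every member's ratio, and its side of 1.5-fold, held under a pseudocount of 0.1, no filter, a filter at 5 FPKM, quantile normalization, centring on the median of all genes, replicate 1 columns only, each column left out, and the mismatched rows kept, an alternative chosen after seeing the data. The filters and the mismatched rows only decide which genes are included, so they could not change a member's ratio. Centring, replicate 1 columns only and leaving out a column shift all genes together, so these are not separate checks of a member. Called at 2-fold, 3 members were lower instead of 5. With each column left out, 5 members stayed lower, their median ran from −1.04 to −0.745, and 18 to 35 genes of the related lists were lower. Leaving out ZHX2 replicate 2 rescales that profile and moved the median of all genes to 0.17; ATF4 was then at −0.05 and ATF5 at 0.35, and without ZHX2 replicate 3 ATF5 was at 0.05. Depth is unknown, and no replicate error could be estimated.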

Other observations

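The deposited table annotates 51 genes as bZIP factors, among them 6 of the network genes. Of the other 45, 33 passed the filter, 4 lay 1.5-fold or more lower in Mut4 cells (XBP1, NFE2L1, NFIL3 and MAFG) and 0 as much higher, with a median log2 ratio of −0.05. The annotation was taken as given, and the 33 include CCDC88A, which is not a bZIP factor. Some factors lay on the higher side in Mut4 cells without reaching 1.5-fold. CREBZF, which binds the co-regulator HCFC1, had a log2 ratio of 0.45, from 29.6 (Mut4) and 21.4 (ZHX2) FPKM. DBP, a factor of circadian output, was at 2.15 (Mut4) and 1.36 (ZHX2) FPKM, a log2 ratio of 0.41, and BATF, a lymphocyte factor that pairs with JUN proteins, at 36.0 and 29.8 FPKM, a log2 ratio of 0.26. The stress sensors ATF6 and ATF6B pointed to opposite sides, at log2 ratios of −0.29 and 0.16, both under 1.5-fold.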
